A study of Saccharomyces cerevisiae with 6 samples.

Results

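Transcript levels of the budding yeast Saccharomyces cerevisiae were compared between strain IMX605, whose glycolytic genes were gathered into 1 locus of chromosome V, and strain IMX372, in which the major paralogs of these genes are left at their native loci. The comparison covers the functions of the cell other than the relocated glycolytic genes. It takes in 5452 of the 5625 gene models in the deposited table, namely those with a mean of at least 1 FPKM over the 2 IMX605 and 2 IMX372 libraries; 173 models lay below that level. FPKM is a read count scaled by gene length and by the reads of the library on genes.

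Polyadenylated RNA was sequenced from 3 strains, with 2 replicates of each in the labels and 6 libraries in all. IMX605 gave the libraries R12 and R7, IMX606, whose single locus lies on chromosome IX, gave R13 and R8, and IMX372, titled MG aerobic, gave DSE001 and DSE002. Per the labels the IMX605 and IMX606 replicates came from separate aerobic bioreactor cultures on a medium abbreviated SMD; for IMX372 separate cultures are not stated, so its spread may be technical. As background, the strains descend from the CEN.PK laboratory line, and IMX372 is known as a minimal glycolysis strain from which the minor paralogs of the pathway were deleted; the table's coordinates are on CEN.PK113-7D sequences. The labels give no treatment beyond this. The IMX372 libraries were taken over from an earlier deposit, so strain and library set cannot be told apart in any difference reported here.

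Yeast cells tend to shift broad gene programmes together. In fast growth the genes for ribosomal proteins and for ribosome assembly are high, while slower growth, starvation or stress brings out a common set of protective genes under the activators Msn2 and Msn4, which bind the stress response element. Cells near quiescence also store carbohydrate, thicken the wall and raise autophagy, and genes of the wall and of autophagy are among those described here. The URA3 gene, for orotidine phosphate decarboxylase of pyrimidine synthesis, is widely used as a selectable marker in strain construction.

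Of the 5452 models, 817 were higher in IMX605 (15%) and 818 were lower (15%) by limma with Benjamini-Hochberg adjustment at 0.05. In bulk RNA, more cells in a given state and more RNA per cell cannot be told apart. In all 1635 of the called models the 2 IMX605 libraries lay on the same side of the 2 IMX372 libraries without overlap. The share of all models that separate in this way is not given. Because every called model separates, such remarks on named genes below describe the values and add nothing to the calls. Most changes were small, since the median absolute log2 change of the called models was 0.55 and 905 of them (55.4%) changed by less than 1.5-fold. A change of at least 2-fold was called for 204 models on the high side (3.74%) and 112 on the low side (2.05%). With library R12, R7, DSE001 or DSE002 left out in turn, 612, 445, 527 and 470 models were called higher and 422, 370, 670 and 335 lower. In the fit and in all 15 alternatives, 356 models were called higher (6.53%) and 263 lower (4.82%). In the counts by function below, left-out counts are those without R12, R7, DSE001 and DSE002 in turn. The genes said to rise or fall against IMX372 are those whose call was kept in every alternative, and genes that lost it are left to the counts. Fold changes are log2 differences of log2(FPKM + 1), IMX605 minus IMX372, which understate the changes of genes near 1 FPKM.

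The libraries held 20124583 and 19490736 reads on genes in IMX605, 18754741 and 21370278 in IMX606, and 70510681 and 19100242 in IMX372. For a 1 kb gene, 3 reads corresponded to between 0.0426 and 0.160 FPKM, a limit that covers counting error only. The labels give no cell type, so mating type was read from receptor genes. STE2, the alpha-factor receptor of a cells, had 460 and 452 FPKM in IMX605 against 647 and 744 FPKM in IMX372, while STE3, the a-factor receptor of alpha cells, had 5.03 and 9.11 FPKM in IMX605 against 4.63 and 6.30 FPKM in IMX372. STE2 was thus far above STE3 in all 4 libraries, as in a cells. Model 3 of MATALPHA2, a gene of the alpha mating type, had 16.4 and 15.6 FPKM in IMX605 against 0 and 0 FPKM in IMX372, at least 72.0-fold higher by a floor of 3 reads in 1 library; it has near-identical copies in the silent mating type loci. The a-factor genes MFA1 and MFA2 were not analysed here.

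The length of a gene moved with its call. Among models with no near-identical copy, shared name or overlap, 57.6% of the 118 models under 300 bases were called higher, as were 44.4% of the 72 models of at least 5000 bases. In the class of 1000 to 2000 bases, 8.78% of 2085 models were called higher and 19.5% lower. Of the models of at least 5000 bases, 0 were called lower by limma, with 0 at an unadjusted p under 0.05 and 0 by voom. The part of length in the results by function was not tested. For that reason some of the counts below also give the members of 500 to 5000 bases. In that class 12.3% of 4838 models were called higher and 15.8% lower. The search for copies needed a match of 200 bases, so it could not flag models shorter than that.

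**Figure D1:**
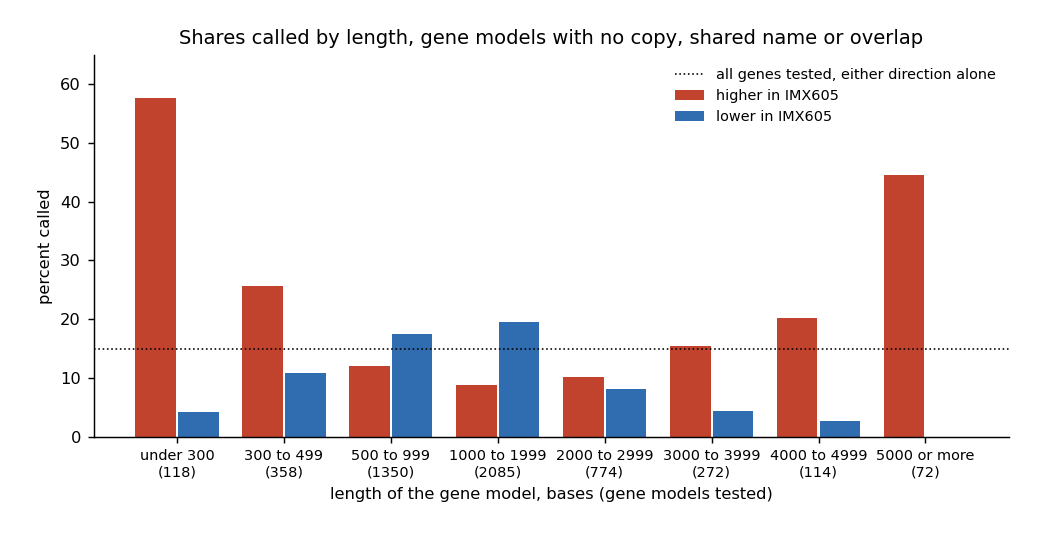
Share of gene models called higher (red) and lower (blue) in IMX605 against IMX372, in percent, by length of the gene model in bases, with the number of models in brackets and the 15% of all models in either direction as a dotted line. The highest shares called higher are 57.6% under 300 bases and 44.4% at 5000 bases or more.

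URA3 showed the largest rise among models with a name of their own. It had 9763 and 9249 FPKM in IMX605 against 276 and 250 FPKM in IMX372, a log2 change of 5.17 (SE 0.10, adjusted p = 3.63e-11). Both IMX605 libraries stood far above both IMX372 libraries, and IMX606 was also high at 10900 and 9770 FPKM. CAN1, the arginine permease gene of chromosome V, had 9.17 and 9.78 FPKM in IMX605 and 119 and 119 FPKM in IMX606, against 93.1 and 108 FPKM in IMX372 (log2 change from IMX372 to IMX605 -3.27, SE 0.11). CAN1 was thus low in IMX605 and high in the other 4 libraries. Its neighbours AVT2, a putative amino acid transporter, and NPR2, a nitrogen permease regulator, were not called: AVT2 had a log2 change of -0.11 (adjusted p = 0.557), and NPR2 one of -0.10 (adjusted p = 0.620).

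The next largest rises were in genes of iron retention, stress and quiescence. FIT3, a wall mannoprotein that retains siderophore iron, had 304 and 582 FPKM in IMX605 against 31.7 and 29.5 FPKM in IMX372 (log2 change 3.74, SE 0.24). HSP12, a small membrane-binding heat shock protein, had 601 and 886 FPKM in IMX605 against 63.5 and 52.7 FPKM in IMX372 (log2 change 3.63, SE 0.17). DDR2, a multistress response gene, had 224 and 342 FPKM in IMX605 against 21.1 and 19.1 FPKM in IMX372 (log2 change 3.72, SE 0.18). In all 3 genes R7 was the higher of the IMX605 libraries, and both stood above both IMX372 libraries. SPG4, needed for survival at high temperature in stationary phase, had 17.99 and 34.5 FPKM in IMX605 against 1.55 and 1.81 FPKM in IMX372 (log2 change 3.28). RTC3, a protein with a role in RNA metabolism, had 139 and 168 FPKM in IMX605 against 17.2 and 14.8 FPKM in IMX372 (log2 change 3.18). RGI2, a gene of energy metabolism under respiratory growth, had 7.33 and 9.23 FPKM in IMX605 against 0.458 and 0.317 FPKM in IMX372 (log2 change 2.73), so it was near the floor of the table in IMX372.

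SIP18, a desiccation tolerance gene, rose by 2.58 on the log2 scale. NQM1, a transaldolase of the stationary phase, rose by 2.44. The uncharacterised genes DPA10 and YMR206W rose by 2.79 and 2.39. CTR2, the copper transporter of the vacuolar membrane, had 882 and 813 FPKM in IMX605 against 153 and 143 FPKM in IMX372 (log2 change 2.51), and it lies within 500 bases of ENO2, a relocated glycolytic gene on the same strand. Other large rises belong to models whose reads can be shared. ARE1, a sterol acyltransferase, rose by 2.82 but overlaps another model, HSP32 rose by 2.45 but has near-identical copies in HSP33 and SNO4, and YJR020W, with 8.95 and 4.93 FPKM in IMX605 against 0.596 and 0.157 FPKM in IMX372, overlaps the peroxisomal thioesterase gene TES1.

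Most of the largest falls were in genes below 10 FPKM in IMX605, with TRX1 and FLP1 as exceptions. JIP3 had 0.511 and 0.452 FPKM in IMX605 against 107 and 98.3 FPKM in IMX372 (log2 change -6.13, SE 0.19). It matches MID2, a sensor of wall stress, in a search of both strands. The match can thus be the same DNA read from the opposite strand. Since the strand setting of the counts is not given, antisense reads cannot be told apart. MHF1, a histone-fold protein of the DNA damage response, had 5.28 and 2.26 FPKM in IMX605 against 151 and 137 FPKM in IMX372 (log2 change -5.00), and lies beside ADH1 on the opposite strand. TRX1, one of the cytosolic thioredoxins that reduce disulphides in target enzymes, had 82.3 and 80.1 FPKM in IMX605 against 1491 and 1669 FPKM in IMX372 (log2 change -4.26, SE 0.16). Its 2 libraries of each strain were close together, and the strains were far apart. In IMX606 TRX1 was low as well, with a log2 change of -4.59 from IMX372. An effect of position near the native loci of the relocated genes was not tested for TRX1, MHF1, the riser YMR206W or other named genes. Their changes therefore cannot be read as changes of function alone.

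FMC1, an assembly factor of the mitochondrial ATP synthase on chromosome IX, had 2.65 and 6.69 FPKM in IMX605 and 88.9 and 68.2 FPKM in IMX606, against 91.5 and 83.6 FPKM in IMX372 (log2 change from IMX372 to IMX605 -4.06). FLP1, the recombinase of the native 2-micron plasmid, had 26.3 and 29.0 FPKM in IMX605 against 393 and 442 FPKM in IMX372 (log2 change -3.87). YKL070W and YPR027C, both uncharacterised, fell by 4.16 and 3.98 on the log2 scale. PGU1, an endopolygalacturonase that degrades pectin, had 0.183 and 0.378 FPKM in IMX605 against 11.1 and 10.9 FPKM in IMX372 (log2 change -3.23). YGR022C fell by 3.12, and YMR321C, a partial copy of the methyltransferase gene SAM4, fell by 3.09. The plot of the largest differences by library shows these genes in all 6 libraries.

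Among transcripts above 1000 FPKM in either strain, changes of at least 2-fold fell on few genes. CWP2, a major mannoprotein of the wall, had 5269 and 5406 FPKM in IMX605 against 2376 and 2346 FPKM in IMX372 (log2 change 1.18). AHP1, an abundant peroxiredoxin, had 4500 and 4628 FPKM in IMX605 against 1879 and 1457 FPKM in IMX372 (log2 change 1.46). HSP60, the chaperonin of the mitochondrial matrix, had 1215 and 1402 FPKM in IMX605 against 456 and 402 FPKM in IMX372 (log2 change 1.61). In each of these genes the IMX605 libraries lay close together and above IMX372.

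TMA7, a ribosome-associated protein, rose by 1.52 on the log2 scale, and the small proteins SPO24 and DPI8 rose by 1.06 and 1.54. SED1, a wall protein abundant in stationary phase, rose by 1.58. The ribosomal protein gene RPL4A (1.15), the Hsp70 gene SSA2 (1.24), both models of RPL1B (1.13 and 1.04) and both models of the elongation factor gene TEF1 (1.65 and 1.73) rose as well, but each has a near-identical copy, so the split of reads between copies is uncertain. PGK1, one of the relocated genes, fell by 1.56.

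**Figure D2:**
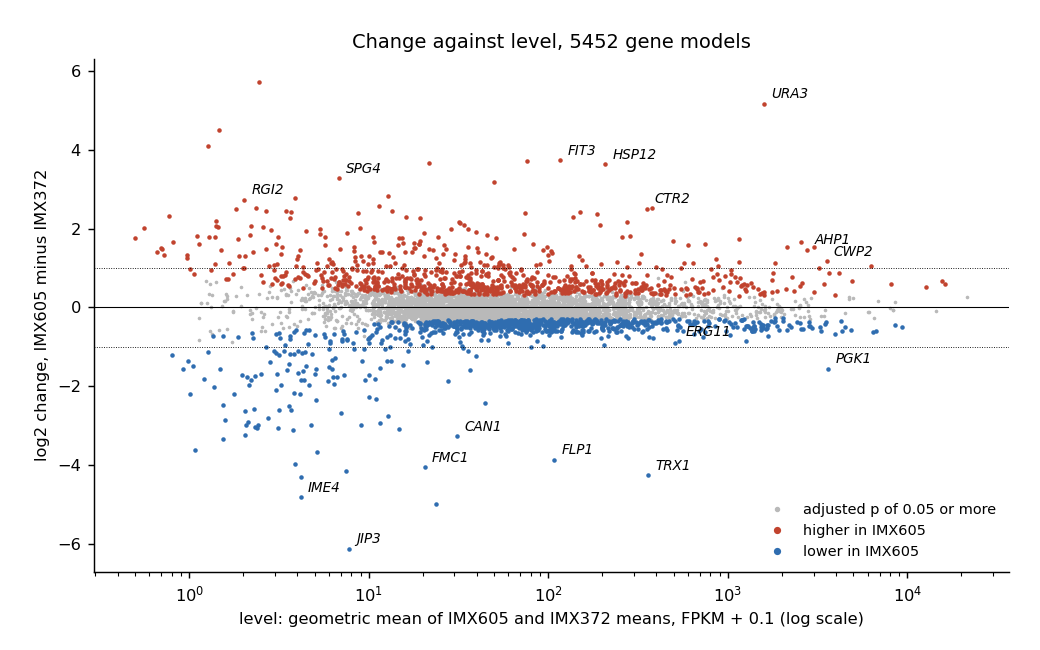
Log2 change of IMX605 minus IMX372 against the level, the geometric mean of the 2 strain means of FPKM + 0.1 on a log axis, for 5452 gene models; red and blue points are called higher and lower, grey points are not called, and dotted lines mark 2-fold. URA3 at 5.17 and TRX1 at -4.26 stand apart among abundant transcripts.

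The lists of genes by function are set against the 15% called higher and 15% called lower among all models, whose median log2 change was -0.04. The lists were chosen with earlier results known, so a count above these shares is a description and not a test. The highest share called higher was in the general stress response (32 of 38 members), and lists with high shares called lower were purine synthesis (14 of 26) and tRNA modification (18 of 34).

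**Figure D3:**
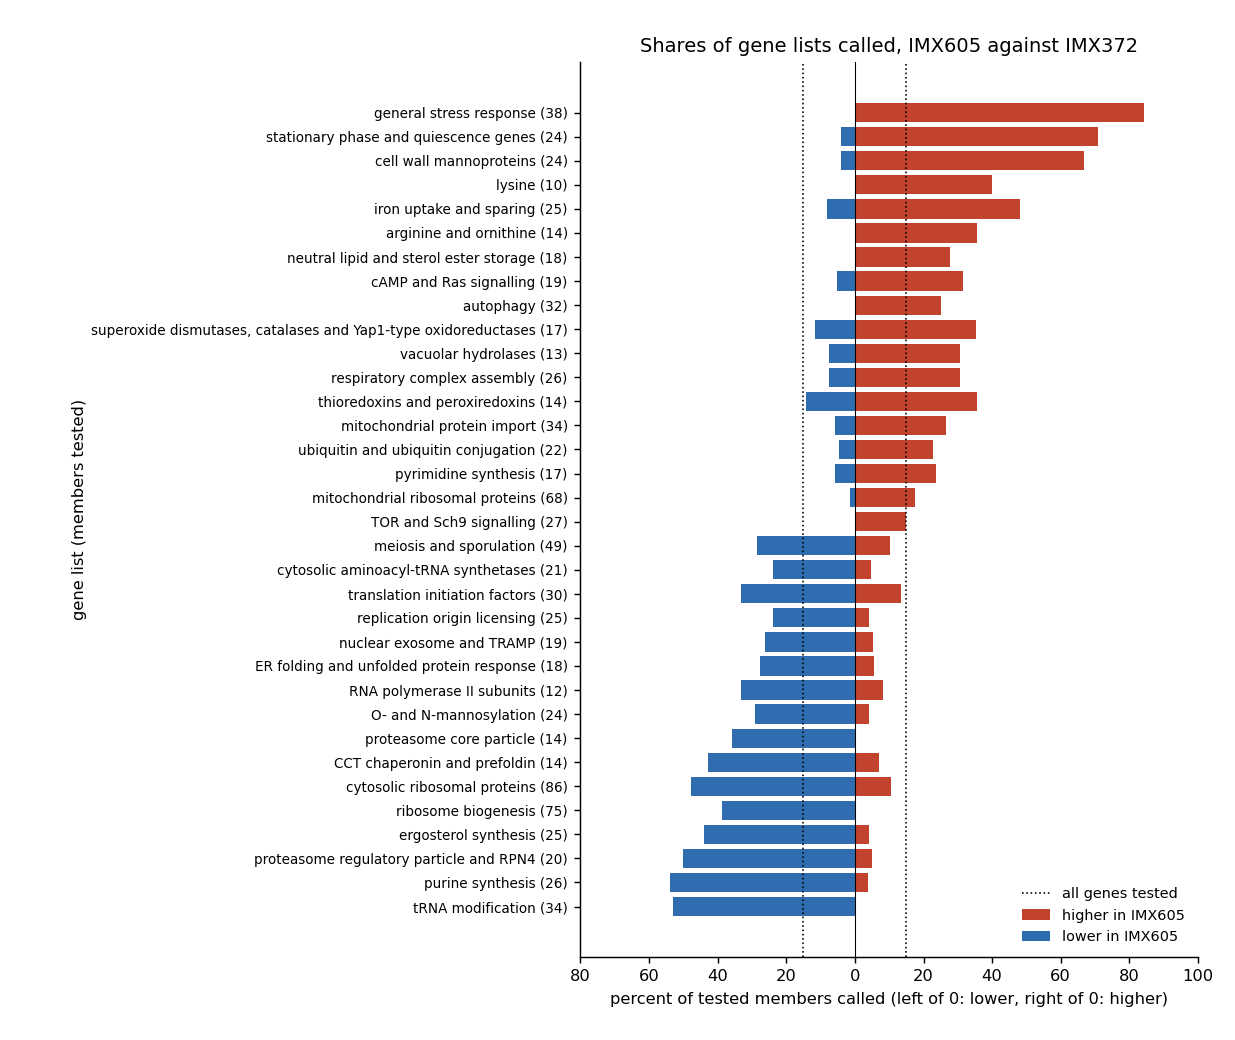
Percent of the tested members of each gene list called higher (red, right) and lower (blue, left) in IMX605 against IMX372, for lists of at least 10 tested members with the largest excess in either direction, a choice made after the values were seen; numbers in brackets are members tested and dotted lines mark the 15% of all models. General stress, quiescence and wall mannoprotein genes reach furthest right, and purine synthesis and tRNA modification genes furthest left.

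General stress genes were higher in IMX605 as a body. Of 38 members tested, 32 rose and 0 fell by limma, with 0 lower at an unadjusted p under 0.05 and 0 by voom; the median log2 change was 0.91. Of the 31 members of 500 to 5000 bases, 25 rose, and 24 members of the whole list kept the call in every alternative. PGM2, the major phosphoglucomutase, which feeds trehalose and glycogen synthesis, had 29.7 and 38.9 FPKM in IMX605 against 10.6 and 10.3 FPKM in IMX372 (log2 change 1.61). The IMX605 duplicates differed in these genes too, since all 38 were higher in R7 than in R12 by a median of 0.36 on the log2 scale, against 0.04 over all models.

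Quiescence genes followed the same direction, with 17 of 24 members higher and 1 lower at a median of 0.98, and 14 rises kept in every alternative. TMA10, a ribosome-associated stress protein, had 249 and 366 FPKM in IMX605 against 63.4 and 57.8 FPKM in IMX372 (log2 change 2.30). SNZ1, the synthase of vitamin B6 that is raised at stationary phase, had 333 and 530 FPKM in IMX605 against 83.4 and 77.6 FPKM in IMX372 (log2 change 2.37). SNO1, its glutaminase partner, rose by 1.84. In this list 23 of 24 members were higher in R7 than in R12, by a median of 0.26. Among its 14 members of 500 to 5000 bases 9 rose and 1 fell.

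The stress response element CCCCT, read on both strands in the 500 bases before the start codon of the S288C reference genome, was more frequent among the genes that rose. It was present in 34.3% of 5408 promoters, in 48.5% of those of genes called higher and in 28.3% of those of genes called lower. Among the 198 promoters of genes at least 2-fold higher the share was 55.1%, and it was 34.0% among the 106 promoters of genes at least 2-fold lower. The share called higher was 11.7% with no element, 18.1% with 1, 28.2% with 2 and 36.9% with 3 or more. HSP12 holds 5 elements, DDR2 4 and RTC3 3, while SPG4 holds 0 in this window. The strains are of CEN.PK background, so these windows stand for the S288C relatives of the measured genes, and a match is a description of letters and not of binding.

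**Figure D4:**
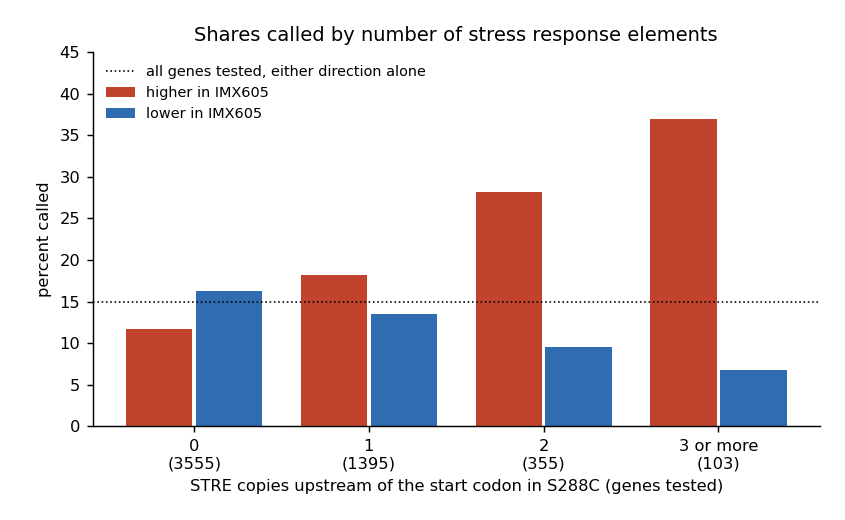
Percent of genes called higher (red) and lower (blue) in IMX605 against IMX372, by the number of CCCCT elements in the 500 bases before the start codon in S288C, with genes tested in brackets and the 15% of all models dotted. The share called higher is 11.7% with no element and 36.9% with 3 or more, and the share called lower is 16.3% and 6.80% in the same classes.

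Other motifs also differed in share. The iron element TGCACCC of the activator Aft1 was in 2.24% of promoters and in 7.58% of those of genes at least 2-fold higher. The elements of ribosome biogenesis genes, GATGAG and AAATTTT, were in 27.9% and 35.4% of all promoters, in 34.5% and 42.3% of those of genes called lower, and in 23.8% and 30.4% of those of genes called higher. The proteasome element GGTGGCAAA was in 2.84% of the promoters of genes called lower against 1.68% of all.

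Wall proteins were higher in IMX605. Of 24 wall mannoproteins tested, 16 rose and 1 fell, with a median of 0.62 and 8 rises kept in every alternative; among the 18 members of 500 to 5000 bases 10 rose and 1 fell. Left-out counts called higher were 12, 12, 14 and 10 members. PIR3, a wall protein bound through glutamine residues, had 41.1 and 47.1 FPKM in IMX605 against 9.79 and 7.07 FPKM in IMX372 (log2 change 2.27). SED1 had 1033 and 1053 FPKM in IMX605 against 383 and 315 FPKM in IMX372. In both genes the strains were far apart relative to the duplicates. The median of the whole list differed by 0.00 between R7 and R12, unlike the stress genes.

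Enzymes of the wall moved in both directions, with 6 of 28 glucan and chitin genes higher (left-out counts 3, 3, 3 and 2) and 3 lower (2, 2, 1 and 1) at a median of 0.02. The glucan synthase genes FKS1 and GSC2 rose by 0.78 and 1.41, GSC2 lying opposite the abundant import gene TIM21. UTR2, a transglycosylase that joins chitin to glucan, had 410 and 332 FPKM in IMX605 against 705 and 679 FPKM in IMX372 (log2 change -0.91). FLO9, a flocculin that makes cells adhere, fell by 1.10 but has a near-identical copy in FLO1.

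In the proteasome, 10 of 20 members of the regulatory particle list and 5 of 14 core subunits fell, with medians of -0.32 and -0.20. Left-out counts called lower were 0, 1, 7 and 1 regulatory members and 1, 3, 1 and 3 core members. PRE6, a core subunit of the alpha ring, had 376 and 380 FPKM in IMX605 against 583 and 505 FPKM in IMX372 (log2 change -0.52). SEM1, a small lid subunit, went the other way and rose by 0.64. RSP5, the ubiquitin ligase that sends membrane proteins to the vacuole, had 86.3 and 85.9 FPKM in IMX605 against 42.4 and 42.0 FPKM in IMX372 (log2 change 1.01). RSP5 had the largest rise of the 5 called among 22 ubiquitin genes, whose median was -0.0048; left-out counts called higher were 1, 3, 3 and 2.

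In autophagy, 8 of 32 genes rose and 0 fell by limma, with 2 lower at an unadjusted p under 0.05 and 0 by voom, at a median of 0.12. Left-out counts called higher were 8, 3, 5 and 6. ATG1, the kinase that starts the process, had 11.5 and 11.8 FPKM in IMX605 against 4.95 and 6.01 FPKM in IMX372 (log2 change 0.97). ATG8, the ubiquitin-like protein of the forming membrane, rose by 0.67, and ATG32, the receptor that brings mitochondria to it, rose by 0.76. PRB1, the vacuolar protease B that completes the breakdown, had 167 and 172 FPKM in IMX605 against 67.1 and 62.3 FPKM in IMX372 (log2 change 1.38). APE3, a vacuolar aminopeptidase, fell by 0.50. Of the proton pump of the vacuole, VMA2 rose by 0.52 and VMA6 fell by 0.55, among 3 rises (left-out counts 1, 1, 2 and 1) and 3 falls (1, 2, 1 and 2) in 19 subunits.

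Of the 14 genes of the CCT chaperonin and its prefoldin partner, which fold actin and tubulin, 6 fell and 1 rose at a median of -0.20, but left-out counts called lower were 1, 1, 3 and 1. CCT2 had 189 and 194 FPKM in IMX605 against 292 and 270 FPKM in IMX372 (log2 change -0.55). In the endoplasmic reticulum 5 of 18 folding genes fell and 1 rose at a median of -0.24, and left-out counts called lower were 1, 2, 8 and 1. The rise was in HAC1, whose spliced mRNA encodes the activator of the unfolded protein response, with 355 and 332 FPKM in IMX605 against 209 and 180 FPKM in IMX372 (log2 change 0.82). EUG1, a disulphide isomerase, fell by 0.63.

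Genes of the secretory entry were lower more often than higher. In protein translocation and N-glycan transfer, 9 of 29 fell and 4 rose (left-out counts of rises 2, 3, 2 and 3) at a median of -0.20; left-out counts called lower were 5, 4, 11 and 3. SWP1, a subunit of oligosaccharyl transferase, had 169 and 165 FPKM in IMX605 against 268 and 285 FPKM in IMX372 (log2 change -0.72), and OST4, another subunit of the same enzyme with a very short gene, rose by 0.63. SEC62, of the translocon, fell by 0.52. In mannosylation of proteins, 7 of 24 fell and 1 rose at a median of -0.24, and left-out counts called lower were 3, 2, 6 and 2. MNN9, a Golgi mannosyltransferase, had 208 and 192 FPKM in IMX605 against 276 and 301 FPKM in IMX372 (log2 change -0.53).

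The protein synthesis machinery was lower in IMX605 at several steps. In tRNA modification 18 of 34 genes fell and 0 rose by limma, with 2 higher at an unadjusted p under 0.05 and 1 by voom. Its median was -0.33, with a range of -0.38 to -0.29 over the alternatives, and all 18 were among the 33 members of 500 to 5000 bases. Left-out counts called lower were 11, 4, 14 and 5. TRM7, a methyltransferase of the anticodon loop, had 52.8 and 57.3 FPKM in IMX605 against 86.5 and 92.3 FPKM in IMX372 (log2 change -0.69). ELP6, of the Elongator complex that modifies the wobble uridine, had 64.0 and 67.7 FPKM in IMX605 against 96.3 and 110 FPKM in IMX372 (log2 change -0.64). TRM82, of the enzyme that methylates guanine, had 76.2 and 71.3 FPKM in IMX605 against 101.2 and 131 FPKM in IMX372 (log2 change -0.64). In these 3 genes no IMX605 library reached the lower IMX372 library. TAD3, of the adenosine deaminase of the wobble base, fell by 0.70 and overlaps the kinetochore gene NKP2.

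Of 75 ribosome biogenesis genes 29 fell, at a median of -0.26, and the promoters of 67.6% of the tRNA modification genes hold the GATGAG element that 94.7% of the ribosome biogenesis genes hold, against 27.9% of all. Left-out counts called lower were 20, 8, 27 and 9 of the ribosome biogenesis genes; 0 were called higher by limma, with 1 at an unadjusted p under 0.05 and 1 by voom. YTM1 and UTP15, assembly factors of the large and small subunit, fell by 0.62 and 0.64. Among 86 cytosolic ribosomal protein genes 41 fell and 9 rose (left-out counts of rises 5, 8, 5 and 6). RPS28B was one of the 9, with 5819 and 5356 FPKM in IMX605 against 3005 and 3140 FPKM in IMX372 (log2 change 0.86). No copy of RPS28B was flagged, but the search needed a match of 200 bases. Sharing of its reads with a related gene was therefore not excluded. The family list held 138 names, of which 21 matched several models and 31 matched none, and these were left out. Among the 50 called genes 12 have a copy, a shared name or an overlap. Of the ribosomal protein genes 3 of 86 were higher in R7 than in R12, the opposite of the stress genes.

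In translation initiation 10 of 30 genes fell and 4 rose (left-out counts of rises 1, 2, 1 and 1) at a median of -0.20, with left-out counts called lower of 4, 3, 6 and 4. TIF3, the factor eIF4B, had 280 and 264 FPKM in IMX605 against 393 and 440.9 FPKM in IMX372 (log2 change -0.61). CAF20, an inhibitor of cap-dependent translation, fell by 0.47. TIF5, the GTPase activator of start codon recognition, fell by 0.46. Of 21 cytosolic aminoacyl-tRNA synthetases 5 fell and 1 rose, with left-out counts called lower of 3, 1, 5 and 2, and HTS1, which charges histidine tRNA, fell by 0.46.

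The decay of mRNA showed changes in both directions, with 6 of 34 genes higher and 4 lower (left-out counts of falls 2, 1, 4 and 1) at a median of 0.03. DHH1, a helicase that promotes decapping, had 27.3 and 26.3 FPKM in IMX605 against 12.8 and 13.5 FPKM in IMX372 (log2 change 0.98). PAT1, which joins it on mRNA leaving translation, had 62.4 and 59.2 FPKM in IMX605 against 34.7 and 34.4 FPKM in IMX372 (log2 change 0.80). Both decapping activators were thus higher with little spread between duplicates. EDC2, an enhancer of decapping, rose by 0.56, whereas CAF40 of the Ccr4-Not deadenylase fell by 0.60. The shares of the list called, 17.6% higher and 11.8% lower, were near the 15% of all models in either direction.

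Of 12 RNA polymerase II subunits 4 fell and 1 rose (left-out counts of falls 1, 0, 2 and 0), and of 19 exosome and TRAMP genes 5 fell and 1 rose (1, 2, 4 and 1). Of 48 spliceosome genes 5 fell and 1 rose (2, 2, 4 and 3). PRP38, a factor of the spliceosome needed for its activation, had 18.8 and 22.3 FPKM in IMX605 against 57.8 and 71.3 FPKM in IMX372 (log2 change -1.60), a larger change than any other called gene of the 48 spliceosome members. The helicase PRP43, which takes spliceosomes apart, fell by 0.59. RPA49 of RNA polymerase I fell by 0.60, RPC25 of RNA polymerase III fell by 0.54 and RPC10, which all 3 nuclear polymerases share, rose by 0.49. SKI6, a core subunit of the exosome that degrades RNA from its end, fell by 0.52. At the nuclear pore 4 of 31 genes fell, POM34 by 0.57 and NUP60 by 0.51, and left-out counts called lower were 2, 2, 7 and 2; 0 rose by limma, with 2 at an unadjusted p under 0.05 and 1 by voom.

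Mitochondrial genes differed by list, and their counts depended on the library and on length. Of 29 genes of mitochondrial DNA maintenance and expression 2 fell (left-out counts 1, 0, 2 and 1) and 0 rose by limma, with 1 higher at an unadjusted p under 0.05 and 1 by voom. Of 34 protein import genes 9 rose and 2 fell at a median of 0.17, and among the 23 of 500 to 5000 bases 4 rose and 2 fell. TIM17 and TIM22, channel subunits of the inner membrane translocases, rose by 0.68 and 0.64. TOM6, a small subunit of the outer membrane gate, had 1352 and 1482 FPKM in IMX605 against 909 and 892 FPKM in IMX372 (log2 change 0.65). TIM11, of the ATP synthase dimer, rose by 0.73. Left-out counts called higher were 9, 6, 6 and 4 import genes.

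Of 68 mitochondrial ribosomal protein genes 12 rose, a share of 17.6% near the 15% of all models, and 1 fell, at a median of 0.11 that ranged from -0.04 to 0.28 over the alternatives. Left-out counts called higher were 16, 4, 6 and 6, and all 68 were higher in R7 than in R12 by a median of 0.28. Among the 48 of these genes with 500 to 5000 bases 5 rose and 1 fell. MRPL19 and RSM19, proteins of the large and small mitochondrial subunit, rose by 0.80 and 0.81. Of 26 assembly factors of the respiratory complexes 8 rose and 2 fell, with left-out counts called higher of 9, 2, 4 and 3, and all 26 were higher in R7 than in R12. Among the 14 of these factors with 500 to 5000 bases 1 rose and 1 fell. SDH6, an assembly factor of succinate dehydrogenase, had 83.9 and 107 FPKM in IMX605 against 23.7 and 31.6 FPKM in IMX372 (log2 change 1.75).

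Of 28 mitochondrial carriers 7 rose and 3 fell at a median of 0.16; left-out counts called higher were 7, 5, 4 and 4 and 1, 0, 0 and 0 lower. PIC2, a carrier of copper and phosphate, had 52.1 and 87.7 FPKM in IMX605 against 22.8 and 23.3 FPKM in IMX372 (log2 change 1.51). SFC1, which exchanges succinate for fumarate, rose by 1.31, and MPC2, of the pyruvate carrier, rose by 0.55. CRC1, the carnitine carrier, rose by 1.22 and lies opposite the abundant gene KTR1. Of the 14 genes of coenzyme Q and lipoate 0 were called in either direction by limma, with 0 at an unadjusted p under 0.05 and 0 by voom. GCV3, the glycine cleavage protein that carries lipoate, had 850 and 967 FPKM in IMX605 against 1133 and 906 FPKM in IMX372, and these values overlapped (adjusted p = 0.336).

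Of 14 thioredoxin and peroxiredoxin genes 5 rose and 2 fell at a median of 0.24, with left-out counts called higher of 5, 3, 3 and 4. DOT5, a nuclear peroxidase, rose by 0.67, and SRX1, the sulphiredoxin that repairs oxidised peroxiredoxins, rose by 1.52. Of 17 genes for superoxide dismutases, catalases and Yap1-type oxidoreductases 6 rose and 2 fell (left-out counts of falls 1, 1, 1 and 2). FRM2, a nitroreductase-like gene among them, had 33.6 and 41.4 FPKM in IMX605 against 6.63 and 6.93 FPKM in IMX372 (log2 change 2.30). HBN1, its close relative, and ZTA1, a quinone reductase, rose by 1.41 and 1.29. CTA1, the peroxisomal catalase, had 4.65 and 4.51 FPKM in IMX605 against 18.4 and 20.1 FPKM in IMX372 (log2 change -1.86).

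The glutathione peroxidase GPX2 rose by 1.10 and the glutathione transferase GTT1 by 0.71, while GRX4, a glutaredoxin that helps to sense iron, fell by 0.70. Of 21 glutathione genes 4 rose and 1 fell, with left-out counts called higher of 5, 2, 2 and 2. PDR12, the plasma membrane exporter of weak organic acids, had 41.3 and 38.5 FPKM in IMX605 against 10.2 and 9.96 FPKM in IMX372 (log2 change 1.88). QDR2, a multidrug exporter of another family, had 1.98 and 1.66 FPKM in IMX605 against 6.67 and 6.70 FPKM in IMX372 (log2 change -1.45). The polyamine exporters TPO2 and TPO3 rose by 1.54 and 0.88 and are near-identical copies of each other.

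Copper and iron genes moved in both directions. Of 15 copper and manganese genes 5 rose (left-out counts 4, 3, 3 and 3) and 4 fell (3, 3, 3 and 4). The copper importers of the plasma membrane were lower, CTR1 with 53.4 and 59.5 FPKM in IMX605 against 118 and 110 FPKM in IMX372, and CTR3 with 14.2 and 13.9 FPKM in IMX605 against 52.1 and 56.5 FPKM in IMX372 (log2 change -1.88). FRE7, a reductase raised by copper shortage, fell by 1.59. All 3 genes are known targets of the copper sensor Mac1, and none of their libraries overlapped between strains. Iron genes tended the other way, with 12 of 25 higher and 2 lower; left-out counts called higher were 9, 9, 9 and 8. TIS11, which degrades mRNAs of iron-using proteins, had 74.5 and 81.6 FPKM in IMX605 against 18.8 and 21.2 FPKM in IMX372 (log2 change 1.91). Of the iron reductases FRE3 rose by 1.51 and FRE4 fell by 1.07.

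Membrane lipid genes fell more often than they rose. In phospholipid synthesis 8 of 29 genes fell and 3 rose at a median of -0.11, with left-out counts called lower of 5, 5, 8 and 4. ITR1, the inositol importer, had 433 and 417 FPKM in IMX605 against 631 and 629 FPKM in IMX372 (log2 change -0.57). EPT1, of phosphatidylethanolamine synthesis, and INO2, the activator of the pathway, fell by 0.55 and 0.51. INO1, which makes inositol phosphate, had 28.6 and 27.5 FPKM in IMX605 against 8.04 and 8.66 FPKM in IMX372 (log2 change 1.64), opposite in direction to ITR1; it lies beside the abundant gene SNA3 on the same strand.

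In sphingolipid synthesis 5 of 25 genes fell and 1 rose at a median of -0.15, with left-out counts called lower of 3, 4, 5 and 3. The riser LCB5, a kinase of long-chain bases, had 78.2 and 80.2 FPKM in IMX605 against 36.1 and 36.2 FPKM in IMX372 (log2 change 1.11). RSB1, a transporter of long-chain bases, fell by 1.71, YSR3, a phosphatase of the same bases that opposes the kinase, fell by 0.79, and SUR2, a hydroxylase, fell by 0.63. Of 25 ergosterol genes 11 fell and 1 rose. ERG11, the demethylase that azoles inhibit, had 392 and 400 FPKM in IMX605 against 690 and 748 FPKM in IMX372 (log2 change -0.86), while MVD1, earlier in the pathway, rose by 0.51. Left-out counts called lower were 5, 8, 7 and 4 ergosterol genes.

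Genes of lipid storage rose in part, and those of peroxisomal oxidation moved in both directions. LRO1, which makes triacylglycerol from phospholipid, rose by 0.64, among 5 rises of 18 storage genes; 0 fell by limma, with 3 at an unadjusted p under 0.05 and 0 by voom, and left-out counts called higher were 3, 3, 3 and 2. Of 22 genes of peroxisomal beta-oxidation and carnitine 5 rose and 2 fell, at a median of 0.11. Of 24 genes of peroxisome biogenesis 2 rose and 3 fell, at a median of -0.02. ADR1, an activator of peroxisomal and respiratory genes, had 5.48 and 7.04 FPKM in IMX605 against 1.33 and 1.41 FPKM in IMX372 (log2 change 1.61). YAT2, a carnitine acetyltransferase, rose by 0.90. PEX18, a co-receptor for peroxisomal import, had 1.17 and 0.964 FPKM in IMX605 against 7.49 and 8.23 FPKM in IMX372 (log2 change -2.10), and PEX25 fell by 0.61. HFA1 and MCT1, of fatty acid synthesis in mitochondria, rose by 0.89 and 0.50.

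Lysine synthesis was higher in part. Of 10 genes 4 rose and 0 fell by limma, with 0 lower at an unadjusted p under 0.05 and 0 by voom, and all 4 were kept in every alternative. LYS1, the last enzyme, had 1064 and 1099 FPKM in IMX605 against 619 and 653 FPKM in IMX372 (log2 change 0.77). LYS2, the aminoadipate reductase, rose by 0.58. LYS20 and LYS21, the homocitrate synthases, rose by 0.63 and 0.76 but are near-identical copies of each other.

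Arginine and proline breakdown showed CAR2, the ornithine transaminase, with 19.1 and 21.5 FPKM in IMX605 against 7.16 and 3.61 FPKM in IMX372 (log2 change 1.79). Of the 14 arginine genes 5 rose and 0 fell by limma, with 1 lower at an unadjusted p under 0.05 and 0 by voom; left-out counts called higher were 4, 4, 3 and 2. BAT2, the cytosolic transaminase of branched-chain amino acids, had 68.3 and 93.9 FPKM in IMX605 against 37.1 and 33.7 FPKM in IMX372 (log2 change 1.16), and BAP2, a permease for these amino acids, rose by 1.00. ARO10, the decarboxylase that leads to fusel alcohols, had 1.93 and 2.72 FPKM in IMX605 against 18.3 and 22.0 FPKM in IMX372 (log2 change -2.67), opposite in direction to BAT2, which acts before it on branched-chain substrates.

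In aromatic synthesis ARO1 rose by 0.76 while ARO4, the first enzyme, fell by 0.62. SER33, the first enzyme of serine synthesis, had 500 and 528 FPKM in IMX605 against 819 and 834 FPKM in IMX372 (log2 change -0.68). PTR2, the importer of small peptides, had 1.46 and 2.22 FPKM in IMX605 against 12.8 and 13.7 FPKM in IMX372 (log2 change -2.34). Several steps of nitrogen metabolism therefore differed in direction within 1 pathway.

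Of 26 purine genes 14 fell and 1 rose at a median of -0.30, with left-out counts called lower of 5, 2, 5 and 4. The salvage enzymes APT1 and HPT1 had the calls that were kept in every alternative. APT1, which recycles adenine, had 302 and 260 FPKM in IMX605 against 441.2 and 509 FPKM in IMX372 (log2 change -0.76). HPT1, which recycles hypoxanthine and guanine, had 1017 and 1012 FPKM in IMX605 against 1501 and 1486 FPKM in IMX372 (log2 change -0.56). Of 17 pyrimidine genes 4 rose and 1 fell (left-out counts of rises 3, 3, 2 and 2), and URA2, which starts that pathway, rose by 0.71.

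Of 45 vitamin and cofactor genes 6 rose and 6 fell; left-out counts called higher were 6, 4, 5 and 4 and 3, 2, 5 and 1 lower. Beside SNZ1 and SNO1, BNA2, which opens the tryptophan ring on the way to NAD, had 57.1 and 76.4 FPKM in IMX605 against 34.1 and 27.7 FPKM in IMX372 (log2 change 1.08). BIO5, an importer for a biotin precursor, had 4.05 and 3.67 FPKM in IMX605 against 9.15 and 8.92 FPKM in IMX372 (log2 change -1.05). HEM1, the first enzyme of heme synthesis, rose by 0.74.

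Of 25 genes of origin licensing 6 fell and 1 rose, with left-out counts called lower of 1, 1, 6 and 1, and PSF3 of the replicative helicase fell by 0.56. Of 28 replication fork genes 5 fell, a share near that of all models, and 1 rose, with left-out counts called lower of 2, 4, 5 and 2. RFC4 and RFC5, which load the sliding clamp, fell by 0.58 and 0.48. CDC26 of the anaphase promoting complex fell by 0.62, and CEP3, which binds centromeric DNA, had 12.7 and 11.8 FPKM in IMX605 against 20.2 and 24.1 FPKM in IMX372 (log2 change -0.80). YCS4, a condensin subunit, had 37.9 and 36.0 FPKM in IMX605 against 15.6 and 17.3 FPKM in IMX372 (log2 change 1.12).

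PCL5, a cyclin that directs turnover of the regulator Gcn4, rose by 0.87. BNI1, a formin that nucleates actin cables, had 10.9 and 9.61 FPKM in IMX605 against 5.60 and 4.91 FPKM in IMX372 (log2 change 0.85). In the list of septins and actin, 8 of 33 members rose and 4 fell at a median of 0.16, but left-out counts called higher were 3, 3, 4 and 2. BNI1 was its only rise kept in every alternative.

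Several meiotic genes were near 0 in IMX605. Of 49 tested 14 fell and 5 rose (left-out counts of rises 5, 4, 4 and 3), at a median of -0.0012, and 10 falls were kept in every alternative. IME4, the methyltransferase that marks mRNAs at the start of meiosis, had 0.441 and 0.285 FPKM in IMX605 against 36.0 and 39.5 FPKM in IMX372 (log2 change -4.83). REC114, of the machinery that cuts DNA for recombination, had 0.354 and 0.475 FPKM in IMX605 against 10.1 and 11.6 FPKM in IMX372 (log2 change -3.06). ZIP2, of the synaptonemal complex, had 0.728 and 0.582 FPKM in IMX605 against 11.02 and 14.7 FPKM in IMX372 (log2 change -3.06). SMK1, the kinase of spore wall formation, had 1.15 and 0.835 FPKM in IMX605 against 23.4 and 25.2 FPKM in IMX372 (log2 change -3.67) and lies opposite the abundant gene NHP6A. In all of these IMX606 was as low as IMX605, with log2 changes from IMX372 of -4.91, -3.00, -2.99 and -3.80. The strand setting of the counts is not given, so antisense reads cannot be told apart for the meiotic genes either. IME1 and IME2, the regulators that open the meiotic programme, were looked up after the values were seen and were not called; IME1 had 9.36 and 10.4 FPKM in IMX605 against 6.90 and 9.43 FPKM in IMX372.

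MER1, a splicing activator of meiosis, had 0 and 0.252 FPKM in IMX605 against 9.21 and 11.7 FPKM in IMX372 (log2 change -3.35), and RRT12, of the spore wall, had 0.640 and 0.382 FPKM in IMX605 against 31.8 and 25.8 FPKM in IMX372 (log2 change -4.30). In all, 25 models lay under 1 FPKM in IMX605 and at 5 FPKM or more in IMX372, 6 of them in the list of meiosis and sporulation. Of these 25, 4 lie opposite an abundant neighbour and 3 have a copy, a shared name or an overlap. The reverse was seen for 11 models, of which 8 have a copy, a shared name or an overlap. MF(ALPHA)2, a pheromone gene of alpha cells, had 1.10 and 1.41 FPKM in IMX605 against 19.3 and 14.6 FPKM in IMX372 (log2 change -2.98), whereas the alpha-agglutinin gene SAG1 was not called, with 16.5 and 18.5 FPKM in IMX605 against 16.1 and 16.3 FPKM in IMX372.

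Of the signalling genes, 6 of 19 in the cAMP and Ras list rose and 1 fell at a median of 0.19, with left-out counts called higher of 1, 2, 2 and 1, and among the 15 members of 500 to 5000 bases 2 rose and 1 fell. SCH9, the kinase that passes the TOR signal to ribosome synthesis, had 70.4 and 62.6 FPKM in IMX605 against 44.8 and 36.6 FPKM in IMX372 (log2 change 0.70). SLM4, of the complex that anchors TOR at the vacuole, rose by 0.53. MTL1, a sensor of wall stress, rose by 0.74, and SSK22, a kinase of the osmotic stress pathway, fell by 0.80. PMC1, the vacuolar calcium pump, rose by 0.59. PMA1, the proton pump that energises the plasma membrane, had 2385 and 2117 FPKM in IMX605 against 1477 and 1301 FPKM in IMX372 (log2 change 0.70), and SUL1, a sulphate importer, fell by 0.63.

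The changes were spread over the genome. Chromosome medians of the log2 change ran from -0.07 on chromosome IV to 0.04 on chromosome III, and on chromosome V, which holds the single locus of IMX605, the median was 0.00092 with 14.9% of 262 models higher and 11.8% lower. Within 20 kb of chromosome ends 43.4% of 182 models were called higher, but among the 94 of them with no copy, shared name or overlap the share was 24.5%, with 19.1% lower. Of the 158 models with a near-identical copy 55.1% were called higher. The excess near the ends was thus smaller where reads can be assigned to 1 gene. In the lowest quartile of level 20.3% of models were called higher, and in the highest 17.6%.

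Between the single-locus strains IMX605 and IMX606, which have their own test in the same fit, 11 models were called (0.202%). With R12, R7, DSE001 or DSE002 left out the count was 12, 10, 6 and 6, and with the IMX606 library R13 or R8 left out it was 100 and 16. They include CAN1 and FMC1, whose levels are given above. REP2, a partitioning gene of the 2-micron plasmid, had 499.3 and 541 FPKM in IMX605 against 901 and 784 FPKM in IMX606, but it was not called with no filter, in limma without the trend, or without R12, DSE001 or DSE002. Both strains are compared with the same IMX372 libraries, so their differences from IMX372 are not independent of each other. The fit gives IMX606 values of 3.11 for HSP12 and -4.59 for TRX1 as log2 changes from IMX372, beside 3.63 and -4.26 for IMX605.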

How the data were processed

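RNA-seq of 6 polyadenylated RNA libraries was analysed from the deposited table of FPKM values per gene model; per the labels' protocols the library kit keeps strand. STAR 2.5.4a, featureCounts, SAMtools, DESeq2 and edgeR are listed, without their roles, per the submitters' processing notes; no source used here gives the build name or the strand setting. Within each library, 100% of values were whole multiples of 1 read (tolerance 0.01), which gave the read totals and the counts for voom.

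Models with a mean of at least 1 FPKM over IMX605 and IMX372 were fitted on log2(FPKM + 1) with limma 3.58.1 in R 4.3.3, using all 6 libraries with 1 mean per strain, a trend in the prior variance and Benjamini-Hochberg adjustment at 0.05. The fit had 3 residual degrees of freedom. In simulated data with 200 changed genes of 5452, it recovered 75.4% of 1.5-fold and 96.2% of 2-fold changes, with 5.54% false calls. The genes were simulated independently, without shifts shared by a strain or library set. These rates therefore need not hold for the calls reported here. The members and gene lists were chosen with earlier results of these data known. Lists are described by counts and medians, without a test.

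Named genes are the 15 largest rises and falls outside shared names, from each list the called genes with the lowest adjusted p (at most 4), called genes of at least 1000 FPKM and 2-fold change, URA3, CAN1 and its neighbours, and, for a list with no call, its most abundant member. Genes named only as neighbours or copies, as mating type markers or for a difference from IMX606 lie outside this rule. Near-identical copies share at least 95% of 200 bases on either strand by BLAST 2.17.0. Abundant neighbours are at least 10 times as high and no more than 500 bases away. Names, copies and promoter windows came from the S288C R64 reference, and 5556 of 5625 models matched a name. Alternatives changed the pseudocount, filter, scaling, fit, gene models and libraries. Some gene lists, and 1 model called between IMX605 and IMX606, are not reported here.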

Additional observations from a re-analysis of the deposited data

Results flagged for a closer look

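IMX605 and IMX606 share the control strain, and their difference was tested in the same limma fit; 11 models passed the adjusted threshold. With no filter on low values FYV10, REP1, REP2, YOL162W and AAD15 lost the call. Without the trend or without R12 REP1 and REP2 lost it, with voom AAD15, without R7 AAD15 and REP1, and without DSE001 or DSE002 all of these but FYV10. Values are log2 differences, IMX605 minus IMX606.

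On chromosomes V and IX, CAN1 differed by -3.52 (adjusted p = 6.56e-09), with 9.17 and 9.78 FPKM in IMX605 against 119.3 and 118.8 FPKM in IMX606. FMC1 differed by -3.90 (adjusted p = 1.11e-05), with 2.65 and 6.69 FPKM in IMX605 against 88.9 and 68.2 FPKM in IMX606. FYV10, a subunit of a ubiquitin ligase for gluconeogenic enzymes, differed by -1.57, with 5.03 and 5.59 FPKM in IMX605 against 17.3 and 18.1 FPKM in IMX606. The midpoints of FYV10 and FMC1 are 1.2 kb apart on chromosome IX.

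The plasmid genes REP1 and REP2 differed by -0.66 and -0.69, and both were lower in both IMX605 libraries than in both IMX606 libraries. YOL162W and YOL163W differed by 1.01 and 1.06, and AAD15, which has a near-identical copy in AAD3, differed by 1.24. Seripauperin genes are a family of near-identical copies. Of these, model 2 of PAU1 differed by -5.38, with 0 and 0 FPKM in IMX605 against 42.2 and 39.3 FPKM in IMX606, at least 96.1-fold lower by a floor of 3 reads in 1 library. Model 2 of PAU20 differed by 5.41, with 56.4 and 49.3 FPKM in IMX605 against 0.331 and 0.194 FPKM in IMX606. AAD15, YOL163W, YOL162W and model 2 of PAU20 lie together near 1 end of chromosome XV, between bases 1551 and 11935. All of these were higher in IMX605, so they may not be separate differences.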

How the results depend on the processing

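No paired analysis was possible because the table's columns carry no replicate numbers. Leaving out 1 library at a time gave 445 to 612 models higher (817 in the fit), 335 to 670 lower (818), 185 to 236 at least 2-fold higher (204) and 105 to 115 at least 2-fold lower (112). With a pseudocount of 5, 131 models were at least 2-fold higher and 66 lower, and without models with a copy, shared name or overlap 119 were at least 2-fold higher. Median-of-ratios scaling gave 956 higher and 762 lower models and equal sums gave 762 and 1017; voom gave 927 and 851. The median log2 change of all models ranged from -0.08 to 0.01. Between IMX605 and IMX606, alternatives chosen after seeing the data gave 5 models with no filter, against 11, and 6 to 100 with a library left out. No named gene called against IMX372 changed sign, but list medians near 0 did, that of the mitochondrial ribosomal proteins among them (-0.04 to 0.28). Of 336 named called genes, 188 kept their call in all 15 alternatives. The cause of these changes was not tested. Duplicates limit the precision, and strain and library set cannot be told apart.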
